A study of Mus musculus with 120 samples.

Results

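Endurance training was examined in the soleus muscle of ND6 mice, which carry the missense mutation m.13997G>A (ND6 P25L) in mitochondrial DNA (mtDNA). The comparison took 12 of the 120 samples of the series: 6 exercised ND6 libraries (I50, I59, I63, I75, I84 and I94) against 6 non-exercised ND6 libraries (I13, I18, I62, I85, I95 and I100). Members were taken by strain and arm in the labels, and each library is named by its mouse code. Every test was repeated without I59, an exercised library that stood apart from the other 11.

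Exercised mice ran for 45 min on alternate days over 8 weeks, at 50% of their maximal capacity. Non-exercised mice were handled but did not train, and running capacity was tested before and after in the study. Training began at 16 weeks of age, and tissue was taken 6 days after the last session, so the levels are those of rested muscle. By the labels, mice of both arms share the C57BL/6Eij nuclear background with intact Nnt (Nnt+/+) and the ND6 mutation. The control strain of the series is not analysed here, so both arms are mutant. The labels class I50, I75 and I94 as responders to exercise and I59, I63 and I84 as non-responders, without the criterion. The soleus libraries of 3 further strains on this background, 36 in all, were used to estimate the spread and in a comparison of training effects. ND5 mice carry m.12352C>T (S204F) in another mtDNA-encoded complex I subunit, CO1 mice m.6589T>C (V421A) in complex IV, and ANT1 mice lack the ADP/ATP carrier gene (Slc25a4-/-).

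ND6 is a subunit of complex I, the NADH dehydrogenase that feeds electrons into the respiratory chain, and it is the only mRNA read from the light strand of mtDNA. The soleus is a postural muscle of mainly slow type I and oxidative type IIA fibres, rich in mitochondria. In rodents, endurance training is known to raise mitochondrial enzymes, capillary supply and the share of oxidative fibres, through regulators such as PGC-1alpha (Ppargc1a).

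The mutated site is shown first, because all 12 mice carry it. In the mouse reference GRCm38 (mm10), mt-Nd6 lies on the minus strand of the mitochondrial chromosome, from 13552 to 14070, and position 13997 is base 74 of the coding sequence. The change is C74T on the coding strand, counted from 1 at the first base of the coding sequence, and it turns codon 25 from CCT to CTT. The reference coding strand from base 43 to base 105 (chrM:13966-14028), with codon 25 in capitals, reads 5′ to 3′ as follows.
mt-Nd6: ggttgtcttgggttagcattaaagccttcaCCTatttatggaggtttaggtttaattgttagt

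Exercised libraries held 11 to 15.4 M expected counts (M, mega) and non-exercised libraries 11.5 to 20.7 M. Totals averaged 13.2 ± 1.60 M in exercised and 16.7 ± 3.06 M in non-exercised libraries (SD, n = 6 each; exact two-sided permutation test, p = 0.0346, adjusted over 4 library tests 0.13). Scaling to library size removes this difference from levels, but exercised libraries give somewhat less precision for weakly expressed genes. Xist was at most 0.225 CPM (counts scaled to library size) and Ddx3y between 89.3 and 113 CPM in all 12, the pattern of male tissue. The adult myosin mRNAs were those of soleus. By deposited FPKM, which is scaled to gene length, type I Myh7 and type IIA Myh2 together led in every library, as given below. Replicates were separate mice by their codes. Among pairs of libraries within an arm, 30 in all, none were identical.

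I59 was the outermost library on the first principal component of the 12, with a score of 54.2. I75 was next with 29.8, and the other 10 libraries lay between -26.0 and 6.50. I59 was the highest of the 12 libraries for 2569 of 13935 genes tested and the lowest for 1908. For the other 11 libraries the number of genes at their highest ran between 653 and 1782.

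The share of all counts from the 37 mtDNA genes did not differ between the arms beyond the spread between mice. It was 21.3, 16.6, 21.9, 19.8, 24.8 and 20.5% in exercised libraries I50 to I94, against 20.3, 19.1, 20.9, 23, 21.1 and 20% in non-exercised libraries I13 to I100. I59 was lowest and I84 highest of the 12. The means were 20.8 ± 2.67% and 20.7 ± 1.32% (SD, n = 6 each; exact two-sided permutation test, p = 0.959). Without I59 the exercised mean was 21.6 ± 1.91% (n = 5), 0.899 percentage points above the non-exercised mean (exact two-sided permutation test, p = 0.39).

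The mutated transcript itself did not differ detectably. mt-Nd6 had 2560, 1900, 2390, 2120, 2890 and 2280 CPM in exercised libraries and 2140, 2260, 2070, 2610, 2510 and 2390 CPM in non-exercised libraries. The arms overlapped, with I59 the lowest and I84 the highest. The log2 difference, exercised minus non-exercised, was 0.01 ± 0.12 (SE), with a 95% interval of -0.22 to 0.25 (edgeR quasi-likelihood test, adjusted p = 0.994). The strand of the RNA is not stated to have been kept, so mt-Nd6 reads cannot be told apart from reads of the opposite mtDNA strand. Over the 13 mtDNA-encoded mRNAs the median log2 difference was 0.013, with 9 of 13 positive. Without I59 it was 0.093, with 12 of 13 positive. mt-Nd5, the other complex I subunit mutated in the series, had a log2 difference of -0.08 ± 0.16, and mt-Co1 of complex IV -0.01 ± 0.14. Slc25a4, which encodes the ADP/ATP carrier ANT1, had a log2 difference of -0.02 ± 0.14. Nnt, the proton-pumping transhydrogenase that supplies mitochondrial NADPH, had 425, 223, 391, 247, 263 and 359 CPM in exercised libraries and 450, 637, 405, 308, 445 and 356 CPM in non-exercised libraries, a log2 difference of -0.45 ± 0.24 (unadjusted p = 0.0738). Its arms overlapped.

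Across all genes, no gene passed the test. Of 13935 genes tested with all 12 libraries, 0 were called at an adjusted p under 0.05 (0.00% called, edgeR), and the smallest adjusted p was 0.875. At an unadjusted p under 0.05 there were 688 genes (4.94% of those tested), 407 higher in exercised mice (2.92%) and 281 lower (2.02%). Without I59, 0 of 14035 genes were called (0.00%), with a smallest adjusted p of 0.9996, and 409 genes had an unadjusted p under 0.05 (2.91%). Positive log2 differences made up 52.1% of all genes with 12 libraries and 50.8% without I59. An even spread of p-values would put 697 genes in that lowest bin with all 12 libraries and 702 without I59. The 95% interval of a gene's log2 difference had a median half-width of 0.279 with all 12 libraries. DESeq2, run as an alternative, called 2 transcripts. AC114005.5 had 20.4, 11.5 and 6.80 CPM in exercised libraries I59, I84 and I94 and was listed at 0 in the other 9 libraries. Pgk1-rs7, a related sequence of the glycolytic gene Pgk1, had 8.90 and 7.87 CPM in non-exercised libraries I18 and I95 and was listed at 0 in the other 10. Pgk1-rs7 can share reads with Pgk1, and both had an adjusted p of 0.954 in edgeR.

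**Figure D1:**
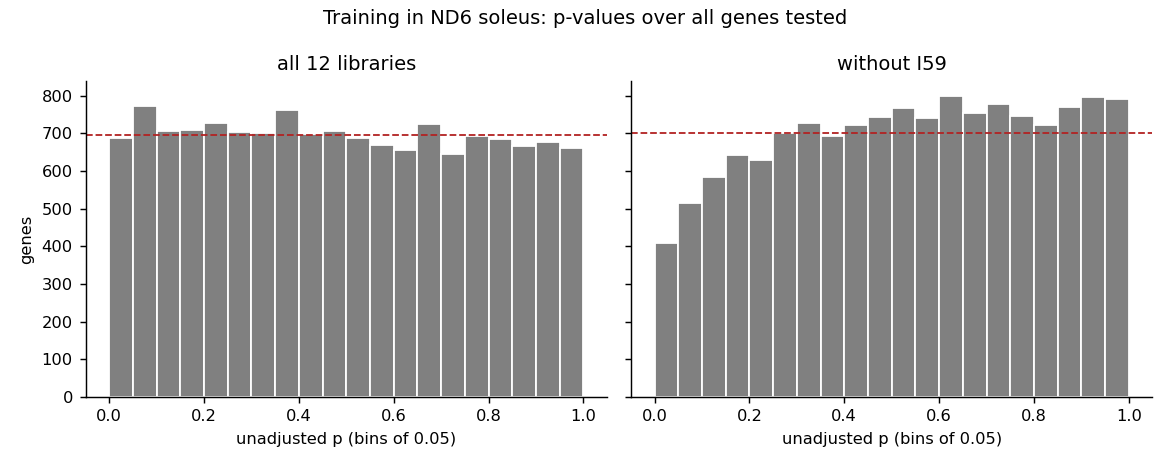
Number of genes (y axis) in bins of 0.05 of the unadjusted edgeR p (x axis) for exercised against non-exercised ND6 soleus, with all 12 libraries (left) and without I59 (right); the dashed line is an even spread. The lowest bin holds 688 genes with all 12 libraries and 409 without I59, against 697 and 702 for an even spread.

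The genes named first were chosen after their values were seen: the 3 smallest p in each direction where the mean log2 CPM over libraries was 1 or more, clone-named genes left out. Camta1, a calmodulin-binding transcription activator, had the smallest p. It stood at 84.1, 81.4, 79.6, 80.8, 68.4 and 75.8 CPM in exercised libraries, against 56.3, 63.4, 63.8, 57.6, 70.6 and 71.3 CPM in non-exercised libraries. Of the exercised libraries, 5 lay above every non-exercised one, and I84 lay among them. The log2 difference was 0.30 ± 0.07 (unadjusted p = 6.28e-05, adjusted 0.875), and 0.28 ± 0.07 without I59.

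Ehd3, an ATPase of endosomal recycling, did not overlap between the arms: 4.66, 7.07, 6.02, 6.55, 6.40 and 5.07 CPM in exercised libraries against 3.94, 4.43, 3.16, 4.23, 3.40 and 4.23 CPM in non-exercised ones. Its log2 difference was 0.61 ± 0.16, and 0.56 ± 0.16 without I59 (adjusted p = 0.954 with all 12). Over all genes tested, 7 (0.0502%) were higher in every exercised library than in every non-exercised one and 10 (0.0718%) were lower. Zfp703, a transcriptional repressor, had 89.9, 94.5, 62.3, 80.4, 71.7 and 70.8 CPM in exercised libraries and 53.4, 54.5, 59.6, 59.1, 53.9 and 70.8 CPM in non-exercised libraries. I100 was the non-exercised library that reached into the exercised range.

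Among genes at lower levels after training, Myh13, a myosin heavy chain best known from eye muscles, averaged 5.57 ± 1.87 CPM in exercised and 9.06 ± 1.88 CPM in non-exercised libraries (SD, n = 6 each), a log2 difference of -0.70 ± 0.20. Adamts8, a secreted metalloprotease, averaged 6.70 ± 1.89 CPM in exercised and 13.6 ± 8.65 CPM in non-exercised libraries. The non-exercised mean was drawn up by I18 at 29.6 CPM and I95 at 17.3 CPM. Apold1, an endothelial gene induced by stimuli, averaged 3.23 ± 1.07 CPM in exercised and 6.63 ± 4.92 CPM in non-exercised libraries, with I95 at 16.0 CPM. All 3 overlapped between the arms, and each had an adjusted p of 0.954.

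**Figure D2:**
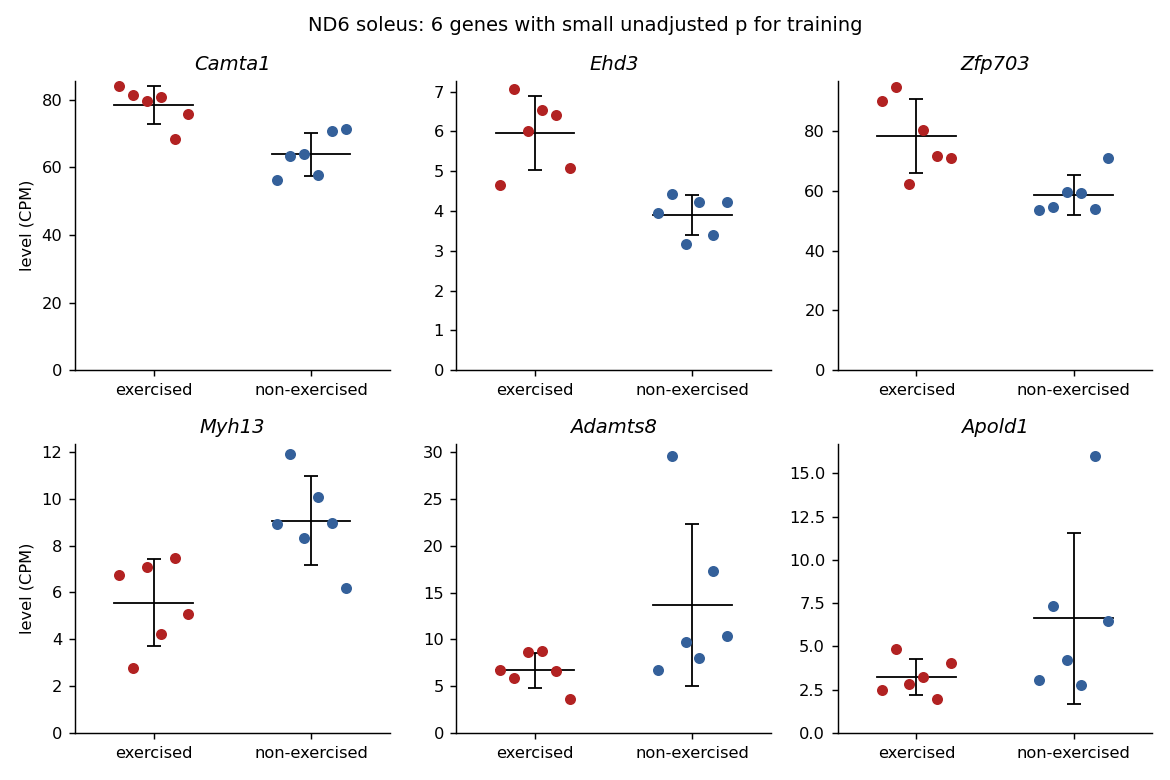
Level in CPM (y axis, from 0) of 6 genes in each exercised (red, left) and non-exercised (blue, right) ND6 soleus library; bars give the mean and SD of 6 libraries. Ehd3 does not overlap between the arms, while Adamts8 and Apold1 differ mainly through single high non-exercised libraries such as I18 at 29.6 CPM for Adamts8.

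The respiratory chain lists stayed near 0. Of 36 nuclear subunits of complex I, 0 passed the test in either direction (0.00% of all genes did) and 0 had an unadjusted p under 0.05. The median log2 difference was 0.025, against 0.0076 over all genes tested, and 27 of 36 were positive. Without I59 the median was 0.065, with 35 of 36 positive, against 0.0031 over all genes. The 95% intervals of the 36 subunits reached at most from -0.279 to 0.299. Summed over the list, levels ran from 5900 to 7810 CPM in exercised libraries, with I59 lowest and I50 highest of the 12, and from 6300 to 7170 CPM in non-exercised libraries. Ndufb10, an accessory subunit of the membrane arm, averaged 222 ± 27.7 CPM in exercised and 211 ± 21.2 CPM in non-exercised libraries.

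Of 13 complex I assembly factors, 0 were called and 1 had an unadjusted p under 0.05, lower (2.02% of all genes were). Nubpl, which delivers iron-sulfur clusters to complex I, had 4.36, 4.92, 5.23, 4.85, 5.30 and 3.53 CPM in exercised libraries and 5.39, 6.06, 5.97, 5.36, 5.47 and 5.97 CPM in non-exercised libraries. The arms did not overlap. Its log2 difference was -0.28 ± 0.10 (unadjusted p = 0.00771, adjusted 0.954), and -0.30 without I59. It was one of the 10 genes lower in every exercised library.

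The other complexes were similar. Median log2 differences were -0.022 over 4 complex II subunits, 0.021 over 9 complex III subunits, 0.008 over 14 nuclear complex IV subunits and 0.016 over 15 ATP synthase subunits. None of these genes passed the test. Among complex IV genes, Cox6a1, the ubiquitous isoform of subunit 6A, averaged 23.7 ± 3.72 CPM in exercised and 19.9 ± 2.67 CPM in non-exercised libraries (log2 difference 0.25 ± 0.12, unadjusted p = 0.0435). Cox4i1, the common isoform of subunit 4, had a log2 difference of 0.08 ± 0.08, and Cox8a 0.16 ± 0.08. Atp5f1 of the ATP synthase stalk had one of 0.06 ± 0.06.

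Fuel metabolism and its regulators likewise gave no call. Medians were 0.021 over 17 genes of the tricarboxylic acid cycle, -0.056 over 22 genes of fatty acid uptake and oxidation, -0.060 over 15 biogenesis regulators and 0.020 over 22 genes of glycolysis and glycogen, with 0 members of each at an unadjusted p under 0.05. Citrate synthase (Cs), the enzyme often assayed as a measure of mitochondrial content, averaged 839 ± 134 CPM in exercised and 853 ± 85.1 CPM in non-exercised libraries. Dlat of the pyruvate dehydrogenase complex had a log2 difference of 0.13 ± 0.10, and the beta-oxidation enzymes Hadhb and Acadm had -0.14 ± 0.12 and -0.13 ± 0.11. Cd36, a fatty acid transporter, had 0.05 ± 0.16 and Ucp3, a mitochondrial carrier linked to fatty acid use, 0.24 ± 0.33.

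Ppargc1a, named outside the rule because it is the best known regulator of the response to endurance training, varied widely between mice. It had 89.2, 94.5, 157, 64.9, 300.0 and 328 CPM in exercised libraries and 422, 113, 209, 151, 38.8 and 365 CPM in non-exercised libraries. The 2 arms covered much the same range, and the log2 difference was -0.33 ± 0.40 (95% interval -1.13 to 0.47). Pdk4, which restrains glucose oxidation, was as variable, from 1060 to 3310 CPM in exercised and from 587 to 3270 CPM in non-exercised libraries. Of the other regulators, Esrra, a nuclear receptor partner of PGC-1alpha, had a log2 difference of 0.14 ± 0.11, Tfam, the mtDNA packaging factor, -0.12 ± 0.08, and Nrf1 -0.14 ± 0.10. The glucose transporter Slc2a4 (GLUT4) averaged 459 ± 69.5 CPM in exercised and 455 ± 36.3 CPM in non-exercised libraries. Hexokinase Hk2 had a log2 difference of -0.23 ± 0.16, and the lactate transporter Slc16a1 -0.24 ± 0.12. Slc25a5, the ANT2 carrier, had 0.23 ± 0.14.

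Fibre type mRNA varied widely between mice of the same arm. Of the summed FPKM of the 4 adult myosin heavy chains, Myh7 made up 33.2, 41.4, 33.6, 44.1, 42.7 and 50.6% in exercised libraries, against 43.2, 47.6, 42.1, 47.1, 48.2 and 38.5% in non-exercised libraries. Mean shares were 40.9 ± 6.64% and 44.4 ± 3.83% (SD, n = 6 each). Myh2 averaged 40.8 ± 2.89% in exercised and 36.4 ± 3.29% in non-exercised libraries, and Myh1 (type IIX) 14.8 ± 5.43% and 14.0 ± 2.45%. The exercised extremes for Myh1 were I50 at 21.6% and I94 at 5.93%, both outside the non-exercised range.

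Myh4, the fast glycolytic type IIB chain, split the exercised libraries. It stood at 49.8, 41.4 and 101 CPM in I59, I75 and I84, against 2390, 2430 and 2590 CPM in the exercised libraries I50, I63 and I94. In non-exercised ND6 libraries it ran from 524 CPM in I85 to 3090 CPM in I95. Low Myh4 was not particular to these mice. Over the other 36 soleus libraries it ran from 11.6 to 5550 CPM with a median of 131 CPM, and 23 of the 36 lay above I59. The log2 difference of -0.60 had an SE of 1.01, so no difference between arms was detectable. The split was not that of the response classes, since I75 is classed as a responder. Pvalb, the calcium buffer of fast fibres, was low in the same libraries, at 53.2, 115 and 114 CPM in I59, I75 and I84 and between 380 and 392 CPM in the other 3 exercised libraries. Actn3, a Z-disc protein of fast fibres, stood at 146, 104 and 82.5 CPM in I59, I75 and I84 and between 348 and 406 CPM in the other 3. Whether fewer fibres expressed these genes or each fibre held less of their RNA cannot be told apart in whole muscle. The fast-fibre list as a whole did not split this way. Its 14 genes summed to 49800, 46300 and 55400 CPM in I59, I75 and I84, against 64800, 57500 and 45400 CPM in I50, I63 and I94. Non-exercised libraries ran from 48900 to 57600 CPM. The median log2 difference of the list was 0.010, with 8 of 14 positive.

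**Figure D3:**
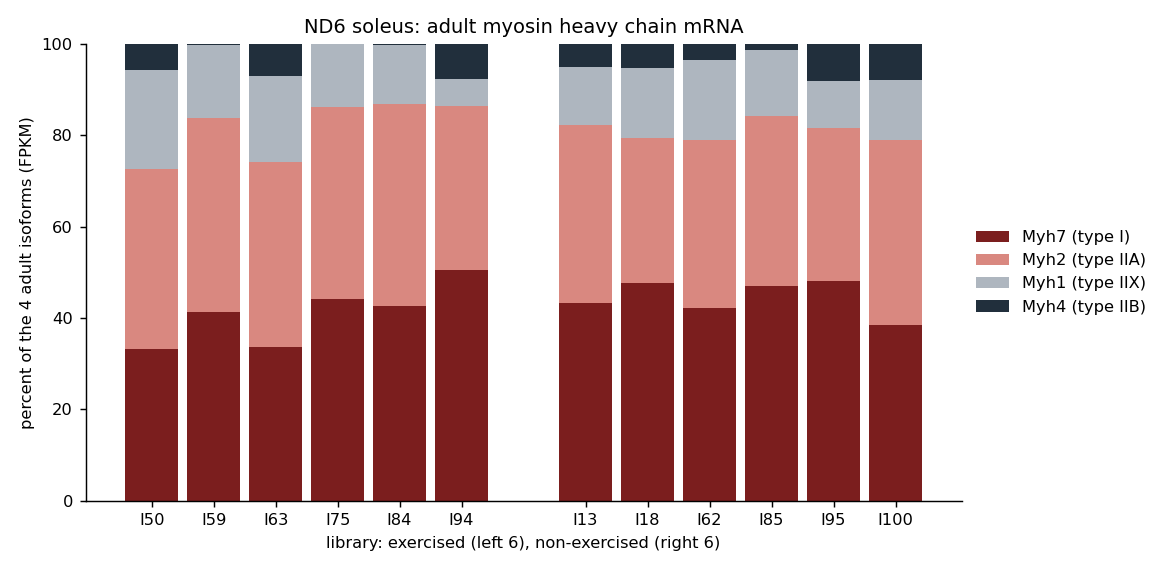
Share of each adult myosin heavy chain in the summed FPKM of the 4 (y axis, percent, stacked) in each ND6 soleus library (x axis), exercised left and non-exercised right. Myh7 and Myh2 lead throughout, and Myh4 is almost missing from exercised I59 (0.145%), I75 (0.126%) and I84 (0.261%) while it lies between 1.45 and 8.04% in non-exercised libraries.

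Of 11 slow-fibre genes, 0 passed the test. The median log2 difference was -0.159, against 0.0076 over all genes, and 2 of 11 were positive. None had an unadjusted p under 0.05. Myh7 averaged 9440 ± 1100 CPM in exercised and 11400 ± 1640 CPM in non-exercised libraries (log2 difference -0.27 ± 0.14, unadjusted p = 0.0585). The slow light chains Myl2 and Myl3 each had -0.25 ± 0.14, and slow troponin T (Tnnt1) -0.16 ± 0.10. Without I59 the list median was -0.143, with 1 of 11 positive. Among 13 calcium-handling genes, phospholamban (Pln), the brake on the calcium pump in slow fibres, averaged 11.8 ± 4.56 CPM in exercised and 19.1 ± 6.94 CPM in non-exercised libraries (log2 difference -0.70 ± 0.29, unadjusted p = 0.0208; -0.58 without I59, unadjusted p = 0.0607). Sarcolipin (Sln), another regulator of that pump, averaged 137 ± 106 and 79.6 ± 35.6 CPM, with I59 at 322 CPM. Its log2 difference of 0.78 was 0.33 without I59.

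List medians were ranked among lists with at least 5 genes tested. Furthest above 0 were embryonic and neonatal sarcomere genes, infiltrating monocyte and macrophage markers, collagens, proliferation genes, macrophage markers and matrix genes. Each of these medians was lower without I59. The 5 embryonic and neonatal sarcomere genes, which mature fibres switch off and regenerating or newly formed fibres express, had a median log2 difference of 1.571, with 4 of 5 at an unadjusted p under 0.05, higher (2.92% of all genes were), and 0 called. Without I59 the median was 0.406, with 0 of 5 at that p, and with I75 also left out it was 0.048. Their summed level was 166, 2030, 79.3, 368, 85.5 and 245 CPM in exercised libraries I50 to I94, against 167, 83.1, 97.8, 151, 77.0 and 247 CPM in non-exercised libraries. I59 and I75 exceeded the highest non-exercised library, and the other 4 exercised libraries lay within the non-exercised range.

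Embryonic myosin Myh3 had 80.4, 1460, 31.9, 227, 29.8 and 133 CPM in exercised and 85.3, 39.1, 36.5, 67.6, 36.5 and 145 CPM in non-exercised libraries. Its log2 difference was 2.26 ± 0.86 (unadjusted p = 0.0121, adjusted 0.954), and 0.55 ± 0.78 without I59. By deposited FPKM, Myh3 in I59 reached 306, against 5.18 to 44.4 in the other 11 libraries, while Myh7 in I59 was at 2980. Neonatal myosin Myh8 stood at 178 CPM in I59 and at most 24.6 CPM in the other 11, embryonic light chain Myl4 at 176 and at most 39.7 CPM, and Tnnt2, the embryonic and cardiac troponin T, at 71.9 and at most 19.7 CPM. Actc1, the fetal and cardiac actin, was at 141 CPM in I59 and at most 56.6 CPM in the other 11.

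Several regulators and synaptic genes of immature muscle were highest in I59, and some also high in I75. Of 13 myogenic and regeneration genes tested, 10 had a positive log2 difference, with a median of 0.395, and 0.268 without I59. Unadjusted p was under 0.05 for 3 of them higher and 1 lower (2.92% and 2.02% of all genes). Of 14 neuromuscular and denervation genes, 6 were positive, with a median of -0.067 and 2 higher at that p. Their summed level was 275 CPM in I59 and at most 264 CPM in the other 11. Myogenin (Myog), a transcription factor of myoblast differentiation, had 23.8 CPM in I59 and 10.3 CPM in I75, against 2.65 to 4.61 CPM in the other 10 libraries. Tmem8c (Mymk), which encodes the fusion protein myomaker, had 12.2 CPM in I59, 2.59 CPM in I75 and at most 1.28 CPM in the other 10. The fetal acetylcholine receptor subunit Chrng had 4.99 CPM in I59 and at most 0.901 CPM in the other 11, with I75 at 0.566 CPM. Chrnb1, a subunit of the fetal and adult receptor, had 45.8 CPM in I59, 31.0 CPM in I75 and at most 24.0 CPM elsewhere. Pax7, a marker of satellite cells, was highest in I75 rather than I59, at 2.5 CPM in I59 and 2.83 CPM in I75 against 1.03 to 2.35 CPM in the other 10. The 6 satellite cell markers together had another order. They summed to 44.1 CPM in I59, the highest of the 12, and 32.5 CPM in I75, against 29.7 to 37.0 CPM in the other 10. Their median log2 difference was 0.136, with 4 of 6 positive, and 0.001 without I59. Follistatin (Fst), the myostatin antagonist, reached 21.1 CPM in I59 and at most 10.4 CPM in the other 11, I75 and I94 alike. Igfn1, a Z-disc protein of skeletal muscle, had the opposite sign. It averaged 6.71 ± 2.53 CPM in exercised and 10.8 ± 2.91 CPM in non-exercised libraries, a log2 difference of -0.69 ± 0.23 (unadjusted p = 0.00501, adjusted 0.954), and -0.59 without I59.

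The upstream sequences of 3 of these genes are shown because the genes were high together in I59. Myogenic transcription factors, which bind the E-box CANNTG, are known to act on the promoters of Myog and Chrng. In each of the 250 bases before the RefSeq transcription start (GRCm38.p6), E-boxes are in capitals. The motif is its own reverse complement, so 1 search covers both strands.
Myh3, chr11:67078050-67078299, plus strand: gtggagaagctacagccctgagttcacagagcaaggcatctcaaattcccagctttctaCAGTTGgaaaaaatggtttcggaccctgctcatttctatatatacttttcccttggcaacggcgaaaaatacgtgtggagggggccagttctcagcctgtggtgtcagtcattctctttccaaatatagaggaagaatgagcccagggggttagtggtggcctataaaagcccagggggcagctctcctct
Myog, chr1:134289754-134290003, plus strand: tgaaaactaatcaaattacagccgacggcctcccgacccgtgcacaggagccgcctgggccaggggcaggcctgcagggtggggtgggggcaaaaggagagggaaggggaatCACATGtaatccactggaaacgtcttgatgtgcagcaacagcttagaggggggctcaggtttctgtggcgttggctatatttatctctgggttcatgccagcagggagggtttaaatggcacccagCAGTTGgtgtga
Chrng, chr1:87205561-87205810, plus strand: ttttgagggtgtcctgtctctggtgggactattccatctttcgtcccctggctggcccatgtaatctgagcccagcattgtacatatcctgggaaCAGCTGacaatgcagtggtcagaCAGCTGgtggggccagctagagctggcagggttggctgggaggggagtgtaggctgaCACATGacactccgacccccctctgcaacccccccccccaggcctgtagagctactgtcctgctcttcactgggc
These windows hold 1, 2 and 3 E-boxes. Of all 32851 promoter windows of the same length, 66.2% hold at least 1, 31.8% at least 2 and 12.2% at least 3, so the motif is common and its presence is a description only. The form CAGCTG occurs 2 times before Chrng and in 13% of all windows.

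A set of imprinted genes, which are expressed from a single parental allele and belong to a fetal growth network that is silenced after birth, was also highest in I59. This set was chosen after its values were seen, so only levels are given. Meg3, the maternally expressed long noncoding RNA of the Dlk1-Dio3 domain, had 20.1, 257, 10.6, 34.0, 15.4 and 28.9 CPM in exercised libraries and 18.7, 10.1, 10.4, 14.8, 11.5 and 27.0 CPM in non-exercised libraries. In I59 it was 7.56 times the next highest library. From the same domain, Rian had 185 CPM in I59 and at most 20.7 CPM in the other 11, Mirg 14.1 and at most 1.94 CPM, Dlk1 8.66 and at most 0.485 CPM, and the gene listed as Rlt1 5.27 and at most 0.642 CPM. Elsewhere in the genome, Igf2 had 158 CPM in I59 and at most 36.2 CPM in the other 11, Plagl1, a zinc finger regulator of the network, 27.4 and at most 3.07 CPM, and Mest 57.8 and at most 9.22 CPM. The remaining members of the set differed less. H19 had 2990 CPM in I59 and 1370 to 2480 CPM in the other 11, Peg3 62.7 against 15.1 to 31.2 CPM, Cdkn1c 56.1 against 6.49 to 21.5 CPM, and Grb10 133 against 49.0 to 83.6 CPM.

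Levels of this size were not found in I59 alone. Among the other 36 soleus libraries, 2 non-exercised ND5 libraries (B70 and B85) exceeded I59 for Myh3, Meg3, Dlk1 and Postn, with Myh3 up to 1920 CPM and Meg3 up to 404 CPM.

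**Figure D4:**
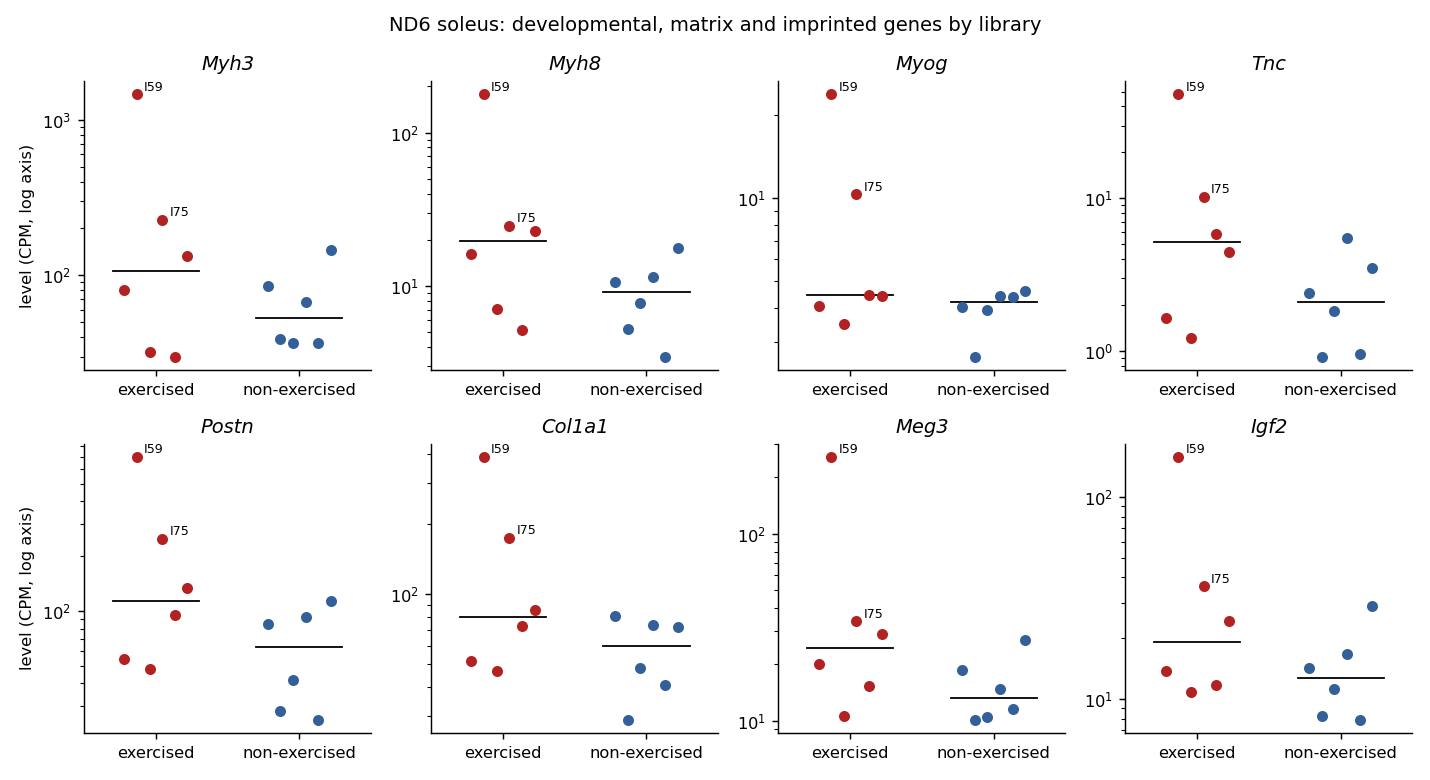
Level in CPM (y axis, log scale) of 8 genes in each exercised (red, left) and non-exercised (blue, right) ND6 soleus library, with the group median as a bar. I59 is highest in every panel and I75 is second, as with Myh3 at 1460 and 227 CPM; the other exercised libraries lie among the non-exercised ones or close above them.

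Matrix genes, summed by list, were also highest in I59 and next highest in I75. All 17 collagens tested had a positive log2 difference, with a median of 0.733 and 9 of 17 at an unadjusted p under 0.05, higher (2.92% of all genes were), but 0 called. Without I59 the median was 0.365, 15 of 17 were positive and 0 of 17 had an unadjusted p under 0.05. With I75 also left out the median was 0.044. Summed collagen levels were 538, 2870, 593, 1580, 866 and 922 CPM in exercised libraries, against 973, 423, 632, 884, 500.0 and 825 CPM in non-exercised libraries. Only I59 and I75 exceeded the highest non-exercised library. Col1a1, the main chain of type I collagen, had 388 CPM in I59, 174 CPM in I75 and 28.9 to 85.8 CPM in the other 10 (log2 difference 1.25 ± 0.52; 0.59 without I59). Col3a1 reached 863 and 465 CPM in I59 and I75, Col5a2 152 and 80.9 CPM and Col12a1 44.6 and 18.4 CPM. Of 23 matrix glycoproteins, cross-linking enzymes and proteases, 4 had an unadjusted p under 0.05, higher (2.92% of all genes were), and the list median was 0.484. It was 0.161 without I59, with 0 of 23 at that p. Postn, periostin, had 700.0 CPM in I59 and 249 CPM in I75, against 25.3 to 133 CPM in the other 10. Tenascin C (Tnc) had 48.1 and 10.2 CPM, against 0.916 to 5.81 CPM. Lox, which cross-links collagen, had 59 and 36.6 CPM, against 4.32 to 15.6 CPM.

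Some genes that respond to mechanical load were also high in I59 and I75, but the load-responsive list as a whole was not high in I59. Ankrd1, a titin-associated stress protein, had 25.6, 199, 22.1, 214, 22.3 and 61.8 CPM in exercised libraries and 18.8 to 61.4 CPM in non-exercised libraries (log2 difference 1.34 ± 0.63, unadjusted p = 0.038; 0.94 without I59, unadjusted p = 0.147). Csrp3, the muscle LIM protein, had 792 CPM in I59 and 1070 CPM in I75, against 219 to 601 CPM in the other 10. Ankrd2 was highest in I75, at 1010 CPM, and in I50, at 876 CPM, with I59 at 614 CPM. The small heat shock protein Hspb1 had 462 and 612 CPM in I59 and I75, against 189 to 292 CPM in the other 10. The 12 heat shock genes had a median of 0.079, with 0 at an unadjusted p under 0.05. The median of the 8 load-responsive genes was 0.212, and 0.238 without I59. Their summed level was 7900 CPM in I59 and 10100 CPM in I75, against 7780 to 9510 CPM in non-exercised libraries.

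Macrophage markers were high in the same libraries. All 10 general macrophage markers had a positive difference (52.1% of all genes did), with a median of 0.511 and 4 at an unadjusted p under 0.05, higher (2.92% of all genes were). Without I59 the median was 0.305, with all 10 positive and 0 at that p. Their summed level was 86.6, 229, 99.6, 176, 95.5 and 114 CPM in exercised libraries and 126, 58, 106, 122, 32.8 and 98.7 CPM in non-exercised libraries. Of the 9 tested markers of infiltrating monocytes and macrophages, all were positive, with a median of 1.064 and 5 at an unadjusted p under 0.05, higher. Without I59 the median was 0.653, with all 9 positive and 1 at that p, and without I59 and I75 it was 0.408. The gene behind that 1 was Trem2, a lipid-sensing receptor of tissue macrophages, at 1.35, 4.02, 0.508, 1.54, 1.16 and 0.770 CPM in exercised libraries and 1.13, 0.102, 0.234, 0.395, 0.184 and 0.434 CPM in non-exercised libraries. Of the exercised libraries, 4 lay above every non-exercised one. Its log2 difference was 2.00 ± 0.54 (unadjusted p = 0.000572, adjusted 0.954), and 1.45 ± 0.54 without I59 (unadjusted p = 0.0106), on levels of a few CPM.

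Other macrophage genes gave smaller differences. Itgam (CD11b) averaged 3.6 ± 1.14 CPM in exercised and 1.72 ± 1.08 CPM in non-exercised libraries, Lgals3 (galectin-3) 9.02 ± 6.27 and 4.37 ± 2.61 CPM, Cd68 5.87 ± 3.98 and 3.44 ± 1.47 CPM, and complement C1qb 10.6 ± 4.59 and 6.74 ± 2.53 CPM. The 8 tendon markers had a median of 0.116, with 5 of 8 positive, and 1 had an unadjusted p under 0.05, higher (2.92% of all genes were). This was Thbs4, at 256 CPM in I59, 188 CPM in I75 and 37.6 to 98.5 CPM in the other 10. The other 7 tendon markers, summed after the part of Thbs4 was seen, came to 42.3 CPM in I59 and 41.2 CPM in I75, below I63 at 64.4 CPM, I18 at 58.5 CPM and I13 at 55.5 CPM. The part of macrophage content in the matrix values was not tested. Endothelial, fibro-adipogenic and pericyte markers had medians between -0.066 and 0.075, and neutrophil markers summed to at most 1.04 CPM in exercised and 0.338 CPM in non-exercised libraries. The 12 proliferation genes tested had a median of 0.692, with 10 of 12 positive and 2 at an unadjusted p under 0.05, higher (2.92% of all genes were). Leaving out I59 gave a median of 0.336, with 0 at that p. Rrm2, of DNA synthesis, had 8.18 CPM in I59 and 1.37 to 3.96 CPM in the other 11. Cdk1 had 1.94 CPM in I59 and at most 0.402 CPM in the other 11.

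Red blood cell genes were the list with the lowest median, -0.479 over 6 genes, with 0 of 6 positive and 2 at an unadjusted p under 0.05, lower (2.02% of all genes were). Leaving out I59 gave a median of -0.325, with 0 of 6 at that p. Their summed level was 194, 121, 367, 138, 383 and 283 CPM in exercised libraries and 330, 434, 203, 427, 308 and 380 CPM in non-exercised libraries. I59 and I75 were again the extremes, here the lowest. Hba-a1, an alpha globin, had a log2 difference of -0.52 ± 0.24 and of -0.38 without I59 (unadjusted p = 0.113), and it shares reads with a near-identical copy. The median of 7 white adipocyte markers was -0.339. Plin1, of the fat droplet surface, averaged 0.685 ± 0.256 CPM in exercised and 1.35 ± 0.619 CPM in non-exercised libraries. The 7 markers summed to 12.3 to 32.0 CPM in exercised and 12.0 to 25.7 CPM in non-exercised libraries. The amount of adipose tissue was not tested.

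**Figure D5:**
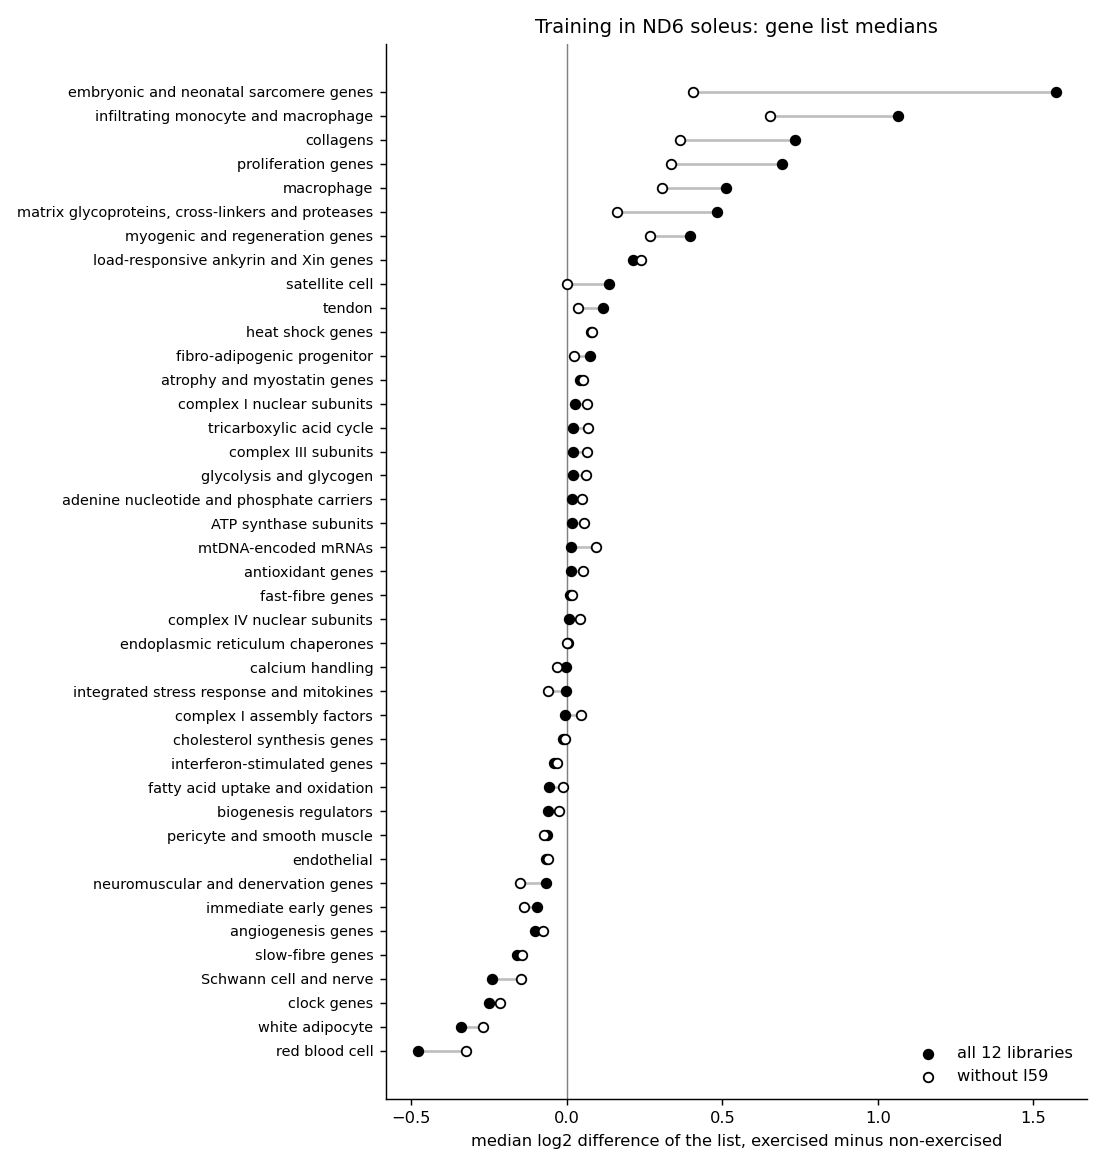
Median log2 difference of each gene list or marker list, exercised minus non-exercised ND6 soleus (x axis), with all 12 libraries (filled) and without I59 (open), for lists with at least 5 genes tested. Developmental, matrix, proliferation and macrophage lists lie nearer 0 without I59, with 0.406 against 1.571 for embryonic and neonatal sarcomere genes, while respiratory chain and fuel lists lie near 0 either way.

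Of 16 clock genes, 0 were called and 3 had an unadjusted p under 0.05, all with a negative difference (2.02% of all genes had one). Without I59 there were again 3, also negative, where 2.91% of all genes had an unadjusted p under 0.05 in either direction. The list median was -0.249, and -0.215 without I59. Ciart, a repressor of the clock, had 1.5, 1.94, 2.61, 0.647, 6.98 and 2.82 CPM in exercised libraries and 2.17, 11.9, 2.75, 6.88, 22.5 and 2.55 CPM in non-exercised libraries. Dbp, a clock-driven transcription factor, had 20.3, 33, 32.5, 20.1, 79.2 and 39.8 CPM in exercised and 36.2, 67.8, 33, 70.9, 157 and 40.9 CPM in non-exercised libraries. I84 was high among the exercised libraries and I18, I85 and I95 among the non-exercised. Arntl (BMAL1), which peaks in the opposite phase, was lowest in those 4 libraries, at 4.72 CPM in I84 and 4.07, 5.07 and 5.38 CPM in I18, I85 and I95, against 10.6 to 15.9 CPM in the other 8. Log2 differences were -1.56 ± 0.57 for Ciart (unadjusted p = 0.00938), -0.85 ± 0.34 for Dbp (unadjusted p = 0.0156) and -0.48 ± 0.20 for its relative Hlf (unadjusted p = 0.0214), each with an adjusted p of 0.954. The labels give no time of day for tissue collection, so arm and time of day cannot be told apart for these genes.

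Stress genes gave single differences. Of 16 antioxidant genes, Hmox1, the haem-degrading enzyme, had 18.2, 16.2, 7.26, 8.73, 8.20 and 6.74 CPM in exercised libraries and 8.12, 5.70, 5.62, 4.62, 3.86 and 9.11 CPM in non-exercised libraries (log2 difference 0.83 ± 0.29, unadjusted p = 0.00647; 0.68 without I59, unadjusted p = 0.0288). I50 and I59 lay well above the rest. Gclm, of glutathione synthesis, averaged 17.7 ± 2.13 CPM in exercised and 14.2 ± 2.56 CPM in non-exercised libraries (log2 difference 0.32 ± 0.12, unadjusted p = 0.0117), and the cytosolic superoxide dismutase Sod1 108 ± 17.4 and 126 ± 25.5 CPM (-0.23 ± 0.10, unadjusted p = 0.0249). The adjusted p of all 3 was 0.954. Metallothionein Mt2 averaged 27.3 ± 19.9 CPM in exercised and 11 ± 7.40 CPM in non-exercised libraries, with I75 at 63.2 CPM and I59 at 38.6 CPM. Of 18 genes of the integrated stress response and mitokines, which rise in many mitochondrial muscle diseases, 0 had an unadjusted p under 0.05 and the median was -0.003. Gdf15, a secreted member of that group, was at 0.225 to 0.416 CPM in exercised and 0.322 to 0.804 CPM in non-exercised libraries, only a few counts per library.

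Angiogenesis genes, 14 in all, had a median of -0.103, with 2 at an unadjusted p under 0.05, both lower (2.02% of all genes were). Without I59 there was 1. Angpt1, the ligand that stabilises vessels, averaged 26.4 ± 4.58 CPM in exercised and 33.5 ± 7.66 CPM in non-exercised libraries (log2 difference -0.35 ± 0.14, unadjusted p = 0.0164). Endothelial nitric oxide synthase Nos3 averaged 6.91 ± 1.92 and 9.08 ± 1.18 CPM (-0.40 ± 0.17, unadjusted p = 0.0274). Vegfa, the main angiogenic factor, named outside the rule, had 240 ± 48.8 and 274 ± 64.1 CPM, with I59 lowest at 156 CPM. Cited2, a transcriptional coregulator that opposes hypoxia signalling, averaged 40.9 ± 10.5 and 28.2 ± 10.7 CPM (0.54 ± 0.24, unadjusted p = 0.0289).

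Responders and non-responders, 3 against 3 exercised mice, also gave no call. Of 13843 genes tested, 0 had an adjusted p under 0.05 (0.00% called, smallest 0.478), and 381 had an unadjusted p under 0.05 (2.75%), 139 higher and 242 lower in responders. The gene with the smallest p, Mnda, an interferon-inducible gene of myeloid cells, had 1.95, 2.51 and 2.31 CPM in responders I50, I75 and I94 and 6.31, 3.48 and 7.17 CPM in non-responders I59, I63 and I84. Its log2 difference, responders minus non-responders, was -1.32 ± 0.25 (unadjusted p = 3.45e-05), and -1.25 without I59. Smooth muscle actin Acta2 averaged 20.3 ± 3.34 CPM in responders and 37.0 ± 10.1 CPM in non-responders. Mnda was named after its values were seen. Over the 36 complex I subunits the median was 0.074, with 0 at an unadjusted p under 0.05, and -0.007 without I59. The embryonic and neonatal sarcomere genes had a median of -1.174. Without I59, a non-responder, their sign turned, to a median of 1.603 with all 5 positive. Myh3 had -1.78 with I59 and 2.24 without it. The 95% interval of a gene's log2 difference had a median half-width of 0.404 with 3 mice a class.

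Training in ND6 soleus was compared with the mean training difference of the ND5, CO1 and ANT1 strains, each with 6 exercised and 6 non-exercised soleus libraries of its own. Of 13935 genes, 0 had an adjusted p under 0.05 for that difference (0.00% called, smallest 0.118), while 1177 had an unadjusted p under 0.05 (8.45%), 782 higher (5.61%) and 395 lower (2.83%) in ND6. Without I59 there were 570 of 14035 (4.06%), 318 higher (2.27%) and 252 lower (1.80%). Within the other strains, training left 2086 genes at an unadjusted p under 0.05 in ND5 (15.0%), 350 in ANT1 (2.51%) and 268 in CO1 (1.92%), with 0 called in each.

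The genes with the smallest p for this difference included Capn11, a calpain known mainly from testis, at 0.128 to 1.42 CPM in exercised and at most 0.0920 CPM in non-exercised ND6 libraries. Its log2 difference from the other strains' training was 5.95 ± 1.18 (adjusted p = 0.118), on a few counts per library. Camta1 had a log2 difference of 0.30 in ND6, against -0.19 in ND5, 0.06 in CO1 and 0.00 in ANT1, and ND6 minus their mean was 0.34 ± 0.08 (unadjusted p = 6.36e-05, adjusted 0.298). Ehd3 had 0.61 in ND6, against -0.51 in ND5, 0.12 in CO1 and -0.04 in ANT1, a difference of 0.75 ± 0.18 (adjusted p = 0.298). Without I59 these differences were 0.33 for Camta1 and 0.70 for Ehd3.

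Developmental and matrix genes pointed in opposite directions in ND6 and ND5. Myh3 had 2.26 in ND6, against -2.60 in ND5, -0.55 in CO1 and -0.42 in ANT1. The difference was 3.45 ± 1.0 (unadjusted p = 0.00129, adjusted 0.419) with I59 and 1.74 ± 0.90 (unadjusted p = 0.0605) without it. All 5 embryonic and neonatal sarcomere genes and 15 of 17 collagens had an unadjusted p under 0.05 for the difference, higher in ND6 (5.61% of all genes did). Without I59, 2 of the 5 (Myh8 and Actc1) and 6 of the 17 collagens did (2.27% of all genes). The high non-exercised ND5 libraries B70 and B85 enter this comparison as I59 does, but non-exercised ND5 libraries were also high as a group. Their medians were 547 CPM for Myh3, 508 CPM for Postn and 333 CPM for Col1a1. In non-exercised ND6 libraries the medians were 53.4, 63.3 and 60.1 CPM. The lowest non-exercised ND5 library had 151 CPM of Postn and 104 CPM of Col1a1, above the highest non-exercised ND6 library at 113 and 80.5 CPM. Pln had -0.70 in ND6, against 0.53 in ND5, 0.44 in CO1 and 0.17 in ANT1 (difference -1.08 ± 0.34, unadjusted p = 0.00239, adjusted 0.438), and Nubpl -0.28, against 0.26, -0.08 and 0.07 (difference -0.36 ± 0.12, adjusted p = 0.438). For 36 complex I subunits the median difference was -0.056, with 0 at an unadjusted p under 0.05.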

How the data were processed

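Soleus RNA was enriched with oligo(dT), made into libraries with a NEBNext Ultra II kit and sequenced as read pairs, per the labels' protocols. The authors aligned reads to mm10 with STAR 2.5.2b and quantified genes with RSEM 1.2.28, per the submitters' processing notes. Expected counts per gene were deposited by the authors without scaling, and the same deposited table set holds FPKM, which were used here only for levels and shares of myosin isoforms. The authors' gene annotation is not stated in these sources. A further 12 soleus columns that match no sample title were not used.

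Expected counts were rounded (5.82% of values were not whole). The 48 placed soleus libraries (10.2 to 20.7 M counts each; M, mega) were fitted together in edgeR 4.0.16 (R 4.3.3) with a mean per strain and arm, TMM scaling, filterByExpr and the quasi-likelihood F test. Benjamini-Hochberg adjustment ran over all genes tested, and a call needs an adjusted p under 0.05. SEs are those of the log2 difference, derived from F, and CPM are TMM-scaled. Library totals and mtDNA shares were compared with exact two-sided permutation tests, whose smallest possible p is 0.00216. The self-test of the fit ran on simulated data.

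Members and gene lists were chosen with earlier results of these data known. Genes named from the lists are, by rule, among the 4 members with the smallest p with all 12 libraries or without I59. Of 224 genes so named, 80 are printed, and 29 more were added outside the rule: the genes with small p, imprinted genes, Ppargc1a, Slc2a4, Pdk4, Cs, Vegfa, Arntl, Col3a1, Mnda and the transcripts that DESeq2 called. Replicates are separate mouse codes, and no statement says more of how they were housed or handled, so p-values measure the spread between these samples. Promoters are from RefSeq (GRCm38.p6), and all 3 genes shown were matched by symbol. Alternatives were RLE or no scaling, no filter or 50 counts in 5 libraries, DESeq2 1.42.0, limma 3.58.1 voom with quality weights, a fit on ND6 libraries alone, and each library left out.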

Additional observations from a re-analysis of the deposited data

Results flagged for a closer look

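Of 314 groups of 6 libraries examined, 20 held a library whose gap to its nearest neighbour was large for the range of the group (Dixon's test). Levels of genes and of summed lists were examined on a log2 scale. Chance flags about 1 group in 20 where items are chosen without regard to their values. I59 accounted for 7 of the 20. These include the imprinted genes Meg3, Dlk1, Plagl1 and Cdkn1c, which were chosen after their values were seen. The flags of I59 therefore cannot be set against that chance rate and are a description only.

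In exercised libraries, I59 stood apart for Meg3 (257 CPM, against 10.6 to 34.0 CPM in the other 5), Dlk1 (8.66 CPM against 0 to 0.485 CPM), Plagl1 (27.4 CPM against 1.43 to 3.07 CPM) and Cdkn1c (56.1 CPM against 11.5 to 17.8 CPM). It also stood apart for the summed proliferation genes (61.6 CPM against 37.2 to 44.3 CPM). It was low for hexokinase Hk2 (344 CPM against 472 to 563 CPM) and Vegfa (156 CPM against 234 to 294 CPM). I50 was low for the summed immediate early genes (208 CPM against 283 to 301 CPM) and high for Tfam (47.9 CPM against 32.1 to 37.0 CPM). I84 was low for Arntl (4.72 CPM against 10.6 to 15.9 CPM), and I94 was high for Sod1 (142 CPM against 92.7 to 107 CPM).

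In non-exercised libraries, I100 was high for the summed fast-fibre genes (57600 CPM against 48900 to 51600 CPM), low for endothelial markers (192 CPM against 222 to 236 CPM) and at 0.0 CPM for neutrophil markers (0.092 to 0.338 CPM in the other 5). The neutrophil flag rests on how a level of 0 is placed on the log2 scale, and every library of that group was near the floor. I85 was low for white adipocyte markers (12.0 CPM against 22.8 to 25.7 CPM) and Cd36 (627 CPM against 762 to 833 CPM). I62 was high for endoplasmic reticulum chaperones (1280 CPM against 781 to 914 CPM). I95 was high for Cited2 (49.2 CPM against 21.2 to 28.5 CPM) and low for C1qb (2.25 CPM against 5.55 to 9.24 CPM), and I18 was low for Myog (2.65 CPM against 3.92 to 4.61 CPM).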

How the results depend on the processing

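No paired analysis was possible because no mouse was in both arms. For training, 0 genes were called under every alternative run except DESeq2, I59 and I75 both left out included (added after seeing the data). The number at an unadjusted p under 0.05 ran from 408 to 1032 with 1 of the 12 libraries left out. DESeq2 called 2 genes with all 12 libraries, the same 2 without I59, 8 for the difference from the other strains and 1 for responders, Mnda. Without a filter 5 genes were called for responders, and leaving out 1 exercised library gave 0 to 1 (Mnda without I63). The difference in library totals ran from -4.57 (without I13) to -2.72 M counts (without I95), with p up to 0.0693, and the difference in share of counts from mtDNA from -0.73 (without I84) to 0.899 percentage points (without I59), or -0.0261 without the 10 most abundant genes.

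Of 2016 gene values, 1990 kept direction and side of the threshold and 24, in 8 genes whose log2 difference was near 0, changed sign. With 1 library left out, log2 differences ran from -0.05 to 0.07 for mt-Nd6, -0.17 to 0.01 for mt-Nd5, -0.09 to 0.08 for mt-Co1, -0.08 to 0.05 for Slc25a4, -0.07 to 0.13 for Cd36, -0.11 to 0.26 for Myh1, -0.05 to 0.08 for Slc2a4 and -0.11 to 0.02 for Cs. With voom, mt-Co1 was at 0.01, Myh1 at -0.21 and Slc2a4 at -0.01. The complex I median ran from -0.006 (without I50) to 0.065 (without I59). The cause was not tested. Depth limits genes of a few counts per library, such as Capn11, Dlk1 and Gdf15.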
